A study of Mus musculus with 8 samples.

Results

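A set of 10 genes encoding RGS proteins, the regulators of G protein signalling, were followed in the neocortex of newborn mice that lacked the zinc finger transcription factor Bcl11a in cortical projection neurons. The genes were Rgs2, Rgs3, Rgs4, Rgs6, Rgs7, Rgs8, Rgs10, Rgs12, Rgs16 and Rgs17, each matched by its exact symbol to the annotation of the array. Of these 10 genes, 9 had a probe set with a single symbol and belong to the 19938 genes measured. Rgs10 was not analysed here. The 4 mutant pups were Bcl11a flox/flox;Emx1 IRESCre/+, with both alleles floxed. The 4 control pups were Bcl11a flox/+;Emx1 IRESCre/+, so both genotypes carried the same Cre and the controls were themselves heterozygous for Bcl11a where Cre acted. Emx1 drives Cre in the progenitors of cortical excitatory neurons and of much of the cortical glia, whereas cortical interneurons arise outside that lineage. Layers II to IV were cut out by laser at postnatal day 2, and RNA of each pup was hybridised to its own Affymetrix mouse gene array. The comparison asks which genes differ in upper cortical layers without Bcl11a.

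When a ligand binds its receptor, the alpha subunit of a G protein takes up GTP and releases the beta and gamma subunits, and both parts act on channels and enzymes. RGS proteins speed up the hydrolysis of that GTP, so that the signal ends sooner. They fall into subfamilies: R4 proteins are mostly small and consist of little beyond the RGS domain, R7 proteins form complexes with the G protein beta subunit Gnb5, R12 proteins carry further binding domains, and RZ proteins act on Gz and related alpha subunits. In cortical neurons they limit signalling through muscarinic, metabotropic glutamate, serotonin and peptide receptors.

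Rgs3, Rgs2 and Rgs4, all of the R4 subfamily, were the members that differed between the genotypes. Rgs3 and Rgs2 fell in the mutant layers and Rgs4 rose. The sequence just before their start sites is shown because these are the members whose expression moved. The RefSeq promoter table (build GRCm38.p6) held 14 windows for the 10 genes, among them 2 start sites of Rgs3, and the 250 bases before each start site are given 5′ to 3′ in the direction of the gene. Capitals mark matches on either strand to TGACCA, a motif bound by BCL11A in human cells, to TGACG, the half-site of the cAMP response element (CGTCA on the other strand), and to TATAAA, the TATA box. These motifs do not overlap each other within the windows shown.
Rgs2, chr1:144004150-144004399, minus strand: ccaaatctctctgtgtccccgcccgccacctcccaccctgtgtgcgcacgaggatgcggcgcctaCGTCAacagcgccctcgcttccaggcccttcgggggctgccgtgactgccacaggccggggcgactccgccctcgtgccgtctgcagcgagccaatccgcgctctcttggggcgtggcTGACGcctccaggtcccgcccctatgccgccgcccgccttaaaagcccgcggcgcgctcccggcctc
Rgs3 first window, chr4:62559597-62559846, plus strand: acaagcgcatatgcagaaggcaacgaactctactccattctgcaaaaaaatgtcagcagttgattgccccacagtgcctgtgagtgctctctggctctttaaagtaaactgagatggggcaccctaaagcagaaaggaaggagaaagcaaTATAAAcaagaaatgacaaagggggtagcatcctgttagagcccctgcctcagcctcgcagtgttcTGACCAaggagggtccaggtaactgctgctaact
Rgs3 second window, chr4:62619422-62619671, plus strand: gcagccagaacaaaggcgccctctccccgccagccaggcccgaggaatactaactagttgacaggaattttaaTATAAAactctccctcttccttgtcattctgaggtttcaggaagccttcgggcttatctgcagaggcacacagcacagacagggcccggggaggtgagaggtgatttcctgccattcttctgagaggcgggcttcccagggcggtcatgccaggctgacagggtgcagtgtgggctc
Rgs4, chr1:169747643-169747892, minus strand: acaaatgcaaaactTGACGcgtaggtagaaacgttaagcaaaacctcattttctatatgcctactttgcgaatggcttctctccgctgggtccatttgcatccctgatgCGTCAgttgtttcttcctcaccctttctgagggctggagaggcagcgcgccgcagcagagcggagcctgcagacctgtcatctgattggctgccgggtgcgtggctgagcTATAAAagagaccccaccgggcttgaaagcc
TGACCA occurred in the first Rgs3 window, starting at -34 relative to the start site, and in neither the Rgs2 nor the Rgs4 window. It was in 2 of the 14 windows of the RGS genes, the other one at Rgs8, against 11.38% of all 32851 windows of that length. TGACG or its complement occurred at -185 and -67 in Rgs2 and at -236 and -141 in Rgs4, and 4 of the 14 windows held a match, against 17.77% of all windows. TATAAA stood at -31 in Rgs4, at -100 in the first Rgs3 window and at -177 in the second. It was in 3 of the 14 windows, against 12.37% of all windows. TTCCTAGAA, a motif of Bcl6, was in 0 of the 14 windows and in 0.35% of all windows. A match is a string of letters, and binding was not measured.

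Values are log2 expression, and differences are mutant minus control. A gene is said to have risen or fallen where limma's moderated test, adjusted by Benjamini-Hochberg over all 19938 genes, gave an adjusted p under 0.05. Of all genes, 4.15% passed, 2.36% higher and 1.79% lower in the mutant. The higher ones made up 56.8% of the calls, and 45.7% with each array centred on its median. The targeted gene was lower in every mutant: Bcl11a averaged 8.63 ± 0.21 in mutant layers and 10.45 ± 0.13 in control layers (SD, n = 4 each). The position of this probe set relative to the loxP sites was not analysed here. Arrays correlated at 0.991 to 0.997 across genes, which are no independent replicates, and control 1 lay apart on principal component 2 (16.59, against -10.88 to 7.75 for the other arrays). The label of upper cortical layers was checked against 12 measured upper-layer markers, all of them above a floor of 4.31 set by Y-linked genes in female pups, and 5 of them (Cux2, Mdga1, Pou3f2, Cux1 and Pou3f3) fell in the mutant. The other 7 did not pass, and 4 of the 12 differences were above 0, among them Unc5d (0.46, adjusted p = 0.0659) and Kitl (0.45, adjusted p = 0.0706). With the replicate number as a block, or without control 3, 2 of the 12 rose. Deep-layer markers were detected too, with 12 of 14 above the floor. In bulk tissue, fewer cells of a type and less RNA per cell cannot be told apart.

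Rgs3 had the largest change of the 9 genes. It encodes a GTPase-activating protein for Gi and Gq alpha subunits, and in mice a longer form with a PDZ domain binds ephrin-B proteins. Its log2 values were 6.66, 6.39, 6.50 and 6.78 in mutants 1 to 4, against 7.70, 7.30, 7.16 and 7.36 in controls 1 to 4. Each mutant lay below every control, and control 1 was the highest array. The mean was 6.58 ± 0.17 in mutant layers and 7.38 ± 0.23 in control layers (SD, n = 4 each). The log2 difference of -0.80 (SE 0.11) corresponds to a 1.74-fold lower level, with a 95% interval of 1.47 to 2.06, and the adjusted p from limma was 8.44e-04. The exact two-sided permutation p was 0.0286, the smallest that 4 arrays against 4 allow.

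Rgs3 is also the only one of the 9 genes with more than 1 probe set, and its 2 probe sets did not move alike. The values above are from the brighter one. The dimmer one read 5.66, 5.50, 5.41 and 5.76 in mutants 1 to 4, against 5.84, 5.72, 5.59 and 5.72 in controls 1 to 4. These groups overlapped, with mutant 4 above 3 of the 4 controls. The log2 difference of the dimmer probe set was -0.14 (SE 0.09), and it did not pass (limma adjusted p = 0.554 over all probe sets). Within each array the brighter probe set exceeded the dimmer one by 1.00, 0.89, 1.10 and 1.01 in mutants 1 to 4, against 1.86, 1.58, 1.57 and 1.64 in controls 1 to 4. The gap was narrower in every mutant than in any control, by 0.66 on average (exact two-sided permutation p = 0.0286), a comparison added after the values had been seen. The annotation assigns 12 transcript accessions to the brighter probe set and 11 to the dimmer one, of which 4 are shared. Which transcripts the probes separate was not analysed here. Averaged over both probe sets, the Rgs3 difference was -0.47 and still passed (limma adjusted p = 0.0128). Of 53 genes with several probe sets whose brightest passed, 24 had a second brightest that passed too.

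**Figure D1:**
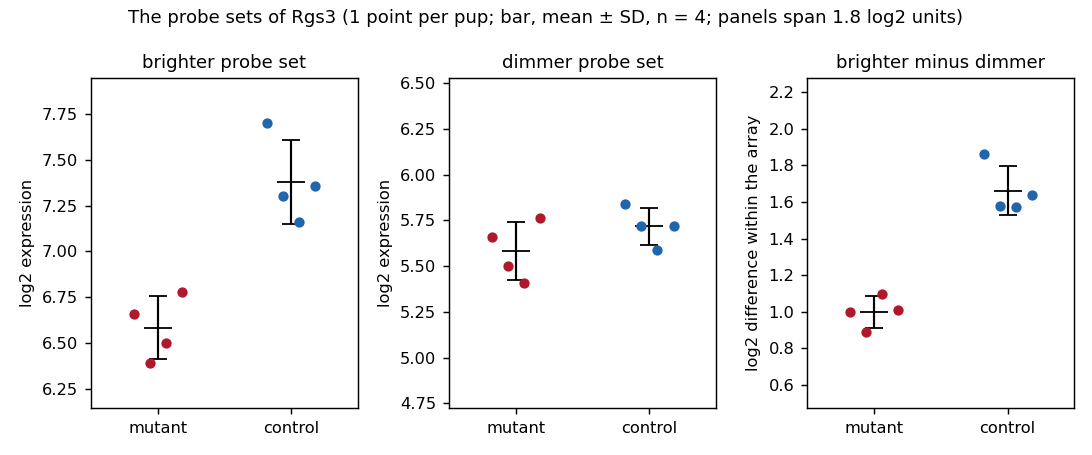
Log2 expression of the brighter (left) and dimmer (middle) Rgs3 probe set, and their difference within each array (right), with 1 point per pup for mutant and control layers and the mean ± SD of 4 pups. The groups separate at the brighter probe set and in the within-array difference, where mutants lie at 0.89 to 1.10 and controls at 1.57 to 1.86, and overlap at the dimmer probe set.

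Rgs2 fell as well, by a smaller amount. It encodes an RGS protein with a preference for Gq alpha subunits, and its transcript is known to be induced by neuronal activity. Its log2 values were 5.22, 5.49, 5.37 and 5.37 in mutants 1 to 4, against 5.76, 5.57, 5.90 and 5.90 in controls 1 to 4. Each mutant again lay below every control, although mutant 2 and control 2 were close. The mean was 5.36 ± 0.11 in mutant layers and 5.78 ± 0.16 in control layers (SD, n = 4 each), and the log2 difference of -0.42 (SE 0.09) is a 1.34-fold lower level with a 95% interval of 1.17 to 1.52 (limma adjusted p = 0.0128). The call held with each array left out in turn, with adjusted p from 0.00451 to 0.0458.

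Rgs4 went the other way. It encodes an RGS protein for Gi/o and Gq alpha subunits that is abundant in cortical neurons. Its log2 values were 7.21, 6.92, 6.67 and 7.06 in mutants 1 to 4, against 6.29, 6.45, 6.49 and 6.78 in controls 1 to 4. Mutants 1, 2 and 4 exceeded all controls, whereas mutant 3 lay below control 4, so the groups overlapped. The mean was 6.97 ± 0.23 in mutant layers and 6.50 ± 0.21 in control layers (SD, n = 4 each). The log2 difference of 0.46 (SE 0.12) is a 1.38-fold higher level with a 95% interval of 1.15 to 1.65, and the adjusted p from limma, 0.0465, was just under the threshold (exact permutation p = 0.0571). The call of Rgs4 was lost without mutant 1, 2 or 4 or control 1, 2 or 3, with adjusted p from 0.102 to 0.141, and was kept without mutant 3 (0.0168) or control 4 (0.0165). It was also lost with inferred sex as a covariate (adjusted p = 0.0555), where the difference was 0.39, and after quantile normalization, median centring or array weighting (adjusted p from 0.0511 to 0.0638).

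**Figure D2:**
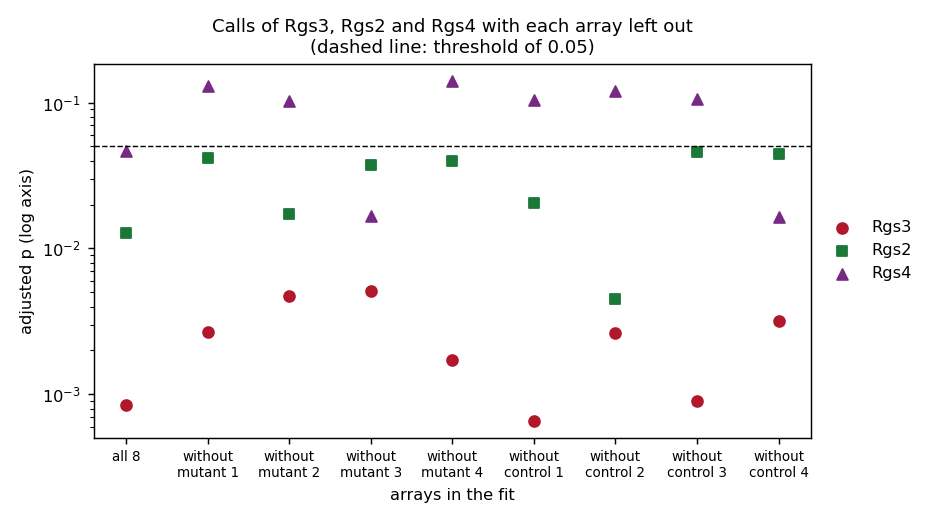
Adjusted p from limma (log axis) of Rgs3, Rgs2 and Rgs4 with all 8 arrays and with each array left out, and the threshold of 0.05 as a dashed line. Rgs3 and Rgs2 stay under the line in all 9 fits, while Rgs4 lies under it with all arrays, without mutant 3 and without control 4.

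The remaining R4 members, Rgs8 and Rgs16, did not pass. Rgs8, a regulator of Gi/o alpha subunits known from cerebellar Purkinje cells, read 5.18, 5.45, 5.30 and 5.22 in mutants 1 to 4, against 5.09, 4.88, 4.80 and 5.21 in controls 1 to 4. Mutants 2, 3 and 4 exceeded all controls and mutant 1 did not. The log2 difference was 0.29, with a 95% interval of 0.09 to 0.50 and a limma adjusted p of 0.136. Without control 4, the control array with the highest Rgs8 value, it was 0.36 with an adjusted p of 0.0507, still short of the threshold. Rgs16, a regulator of Gi and Gq alpha subunits known for its daily rhythm in the suprachiasmatic nucleus, had values of 5.55 to 5.73 in mutants that lay inside the control range of 5.36 to 5.81. Its log2 difference was 0.03, with an interval of -0.17 to 0.22.

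Neither R7 member passed the test. Rgs6, known for its part in the parasympathetic control of heart rate, averaged 8.51 ± 0.11 in mutant layers and 8.56 ± 0.06 in control layers (SD, n = 4 each), with an interval of the log2 difference from -0.20 to 0.10. Rgs7, which regulates Go and is anchored to membranes by Rgs7bp or the receptor Gpr158, averaged 8.78 ± 0.05 in mutant layers and 8.63 ± 0.13 in control layers (SD, n = 4 each). Mutants 1 and 3 exceeded all controls for Rgs7, and the interval of its difference ran from -0.01 to 0.30 (limma adjusted p = 0.424). None of the 5 genes fixed as R7 partners (Gnb5, Rgs7bp, Rgs9bp, Gpr158 and Gpr179) passed limma's test. Of these 5, 1 had an unadjusted p under 0.05, beside 2789 of all 19938 genes. The median log2 difference of the 5 was 0.16, beside 0.02 over all genes.

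Rgs12, an R12 protein with PDZ, phosphotyrosine-binding and GoLoco domains, had values of 6.85, 7.13, 6.82 and 6.82 in mutants 1 to 4, against 6.52, 6.86, 6.71 and 6.70 in controls 1 to 4. Mutant 2 stood well above the other mutants, and control 2 above the other controls. The log2 difference was 0.21, with an interval of 0.01 to 0.40, and did not pass (limma adjusted p = 0.315). Rgs17, an RZ protein that binds opioid receptors, read 7.62, 7.44, 7.43 and 7.45 in mutants 1 to 4, against 7.19, 7.24, 7.61 and 7.55 in controls 1 to 4. The control values formed a low and a high pair, with the mutants mostly between them, and the difference was 0.09 with an interval of -0.12 to 0.30.

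**Figure D3:**
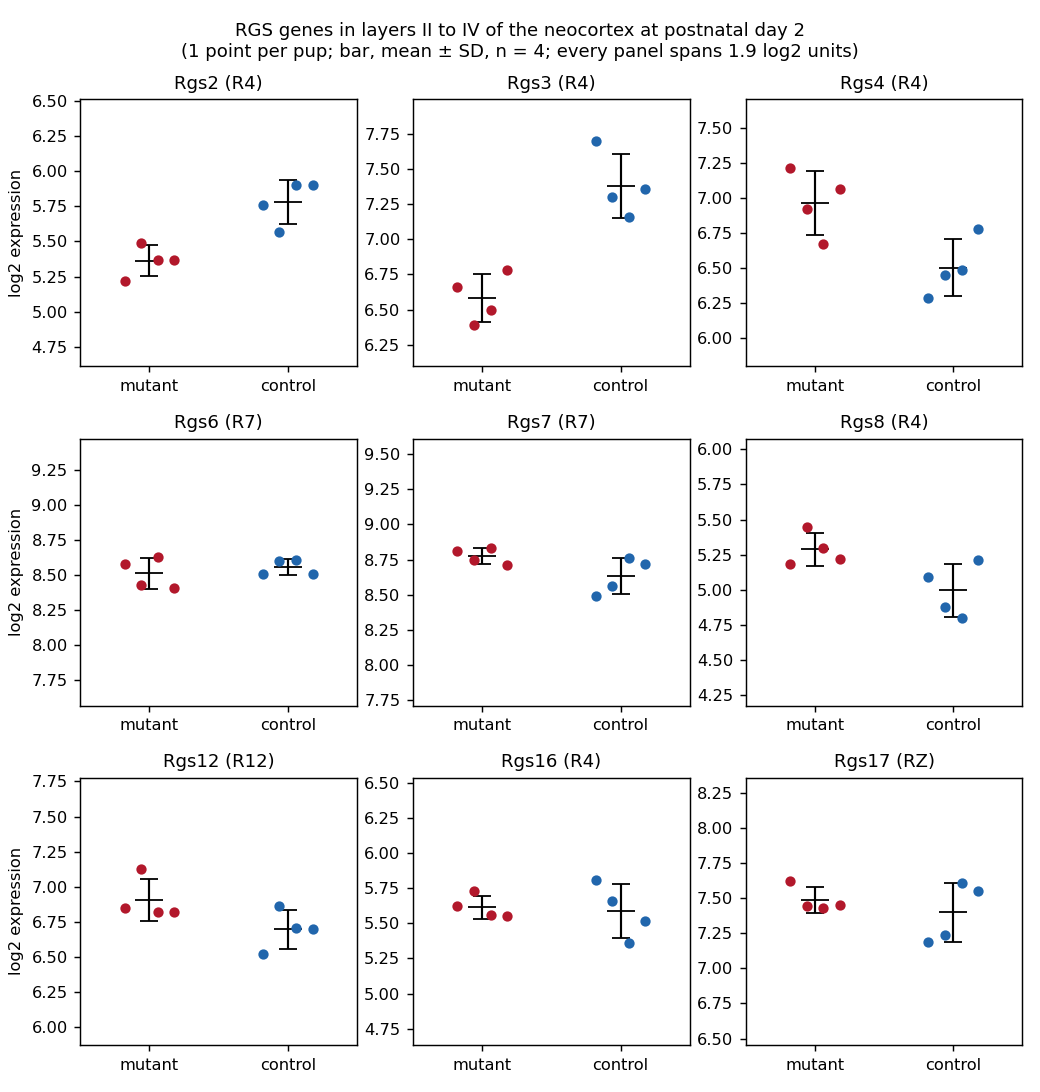
Log2 expression of the 9 measured RGS genes, with 1 point per pup for mutant and control layers, the mean ± SD of 4 pups as bars, and the subfamily in brackets. Mutants lie below all controls for Rgs2 and Rgs3, and the groups overlap for the other 7 genes.

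As a group, 3 of the 9 measured genes passed (33.3%), 1 higher and 2 lower, beside the 4.15% of all genes. Values of the genotypes did not overlap for 2 of the 9, both lower in the mutant, where 9.25% of all genes did not overlap and 3.79% did so with lower mutant values. For 0 of the 9 did all mutants exceed all controls, which held for 5.46% of all genes. Without variance moderation, which lets each gene rest on the spread of its own 8 values, 0 of the 9 passed, where 1.25% of all genes did. There the limma adjusted p was 0.0723 for Rgs3, 0.135 for Rgs2 and 0.289 for Rgs4. In that fit 4 of the 9 had an unadjusted p under 0.05, a share not counted over all genes. In the moderated fit 5 of the 9 did, beside 2789 of all 19938 genes. Since the genes were chosen with results known, nothing is read from these shares. The median log2 difference of the 9 was 0.09, with 6 above 0 and 3 below, beside 0.02 over all genes. All 3 that passed were among the 5 R4 members, and 0 of the 4 members of other subfamilies passed in limma. Whether subfamilies differ was not tested. The SD within a genotype ranged between 0.09 for Rgs6 and 0.22 for Rgs4 (median 0.15), beside a median of 0.11 over all genes. Mutant 2 had the highest mutant value for 4 of the 9 genes and mutant 4 the lowest for 4, while among controls control 3 was highest for 4 and control 1 lowest for 4.

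The other 11 RGS genes on the array did not pass limma's test. Against 2789 of all 19938 genes, 0 of these 11 had an unadjusted p under 0.05. Their log2 differences ran from -0.14 (Rgs20) to 0.11 (Rgs22), with a median of -0.05, and the widest 95% bounds were -0.37 and 0.32. The 5 other R4 genes were Rgs1, Rgs5, Rgs13, Rgs18 and Rgs21. Of these Rgs5, a marker of pericytes, averaged 7.29 ± 0.16 in mutant layers and 7.38 ± 0.16 in control layers (SD, n = 4 each). Means of 5 of the 11 (Rgs1, Rgs13, Rgs18, Rgs21 and Rgs22) lay at or below the floor of 4.31, so these readings may be background and can show no fall. Rgs9 (-0.07), the striatal R7 protein, and Rgs19 (-0.02), an RZ protein, were above the floor.

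**Figure D4:**
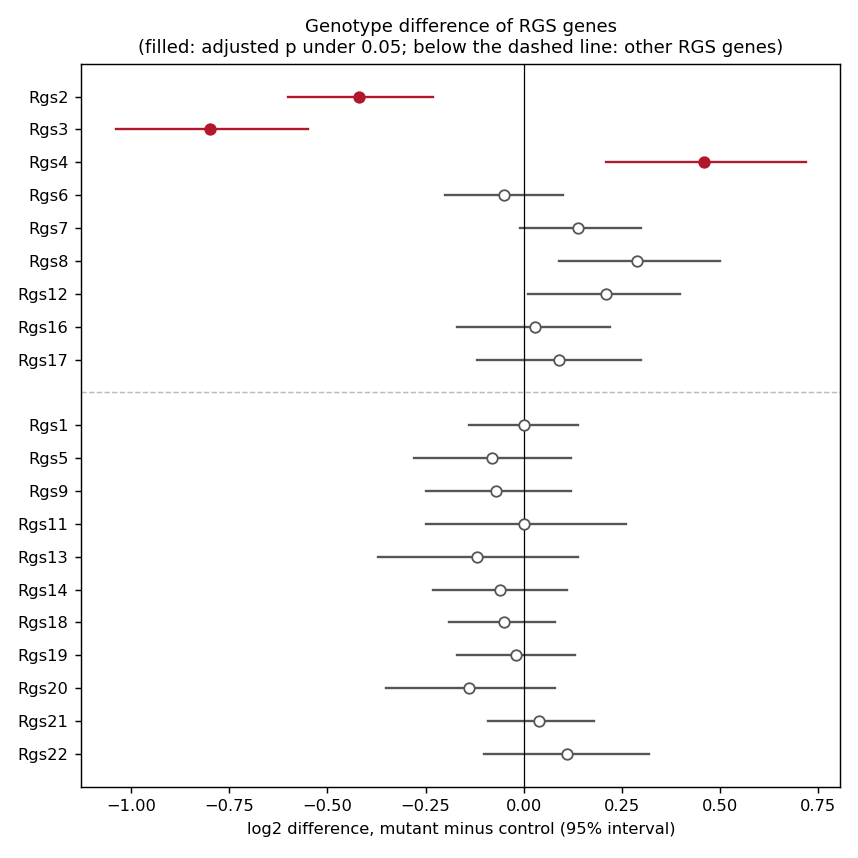
Log2 difference, mutant minus control, with its 95% interval for the 9 genes described (above the dashed line) and 11 other RGS genes (below it), with filled points for adjusted p under 0.05. Rgs3 (-0.80) and Rgs2 (-0.42) lie left of 0 and Rgs4 (0.46) right of it, while differences of the other RGS genes stay between -0.14 and 0.11.

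Several RGS genes lie side by side in the genome. Of the 10 genes, 5 (Rgs2, Rgs4, Rgs7, Rgs8 and Rgs16) are on chromosome 1. In the RefSeq table (assembly GRCm38.p6) Rgs4, with a log2 difference of 0.46, lies directly beside Rgs5, with one of -0.08. Rgs2, with a difference of -0.42, has Rgs13 as its next protein-coding gene on one side, with a difference of -0.12 and a mean below the floor. Rgs8 and Rgs16 are next to each other among protein-coding genes, and neither passed.

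Among genes past the threshold, those with the most similar profile over the 8 arrays were found for each changed member, each gene first centred on its mean. The root mean square difference served as the measure of likeness. Kcnh5, a voltage-gated potassium channel subunit, and Esyt2, an extended synaptotagmin of membrane contact sites, were most like Rgs2, at 0.063 and 0.086 log2 units. Sipa1l2 and the lipoprotein lipase gene Lpl were most like Rgs3, at 0.097 and 0.126. The tetraspanin gene Tspan17 and P3h4 were most like Rgs4, at 0.102 and 0.115. These genes were picked from the same 8 arrays and shared the direction of change by construction.

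Genes that act with RGS proteins were read from lists of subunits, effectors and receptors. Of 15 alpha subunit genes, the direct targets of RGS proteins, 0 passed limma's test (2 had an unadjusted p under 0.05), and log2 differences ran from -0.11 for Gna13 to 0.19 for Gnai1. Of 16 beta and gamma subunit genes, Gnb4 rose (0.40, SE 0.09, adjusted p = 0.0277) and 15 did not pass. Means of 3 of the 16 lay at or below that floor. The call of Gnb4 was lost without mutant 2, 3 or 4, with each array centred on its median, without variance moderation and with inferred sex as a covariate (adjusted p from 0.0612 to 0.202). Of 17 other genes with RGS or GoLoco domains, such as the receptor kinase genes Grk3, Grk5 and Grk6, 0 passed and 2 had an unadjusted p under 0.05. Over all 19938 genes, 2789 had an unadjusted p under 0.05 in the same fit.

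Of 19 effector genes, 3 fell, 2 rose and 14 did not pass (26.3% called, beside 4.15% of all genes). The smaller rise was that of Prex1 (0.35, limma adjusted p = 0.0214). Only 1 effector gene rose without mutant 2, mutant 3 or control 3. Adcy8, a calcium-stimulated adenylyl cyclase, averaged 5.42 ± 0.18 in mutant layers and 6.46 ± 0.08 in control layers (SD, n = 4 each), a log2 difference of -1.04. Another adenylyl cyclase gene, Adcy2, averaged 8.56 ± 0.10 in mutant layers and 7.70 ± 0.25 in control layers (SD, n = 4 each), a difference of 0.86. Kcnj3, a channel subunit opened by beta and gamma subunits, fell by 0.52 on the log2 scale, and Plcb1, the phospholipase acting after Gq, fell by 0.41. Of 43 genes for receptors coupled to Gi/o or Gq, 8 rose (18.6%, beside 2.36% of all genes), 2 fell and 33 did not pass. Their median log2 difference was 0.11. The vasopressin receptor gene Avpr1a (1.81), the somatostatin receptor gene Sstr2 (1.58), the muscarinic receptor gene Chrm3 (0.89) and the serotonin receptor gene Htr2a (0.79) had the largest rises. Control 1 was the lowest control for Avpr1a (5.46, the other controls 6.58 to 6.76) and for Sstr2 (5.74, the other controls 6.19 to 6.65). The 2 receptor genes that fell were the metabotropic glutamate receptor gene Grm2 (-0.60, adjusted p = 5.02e-04) and another muscarinic receptor gene, Chrm1 (-0.44, adjusted p = 0.0125). Both lists were drawn up with earlier results known, and some of these receptors were known to differ, so their shares are descriptions. Without variance moderation 3 of the 19 effector genes and 3 of the 43 receptor genes passed.

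**Figure D5:**
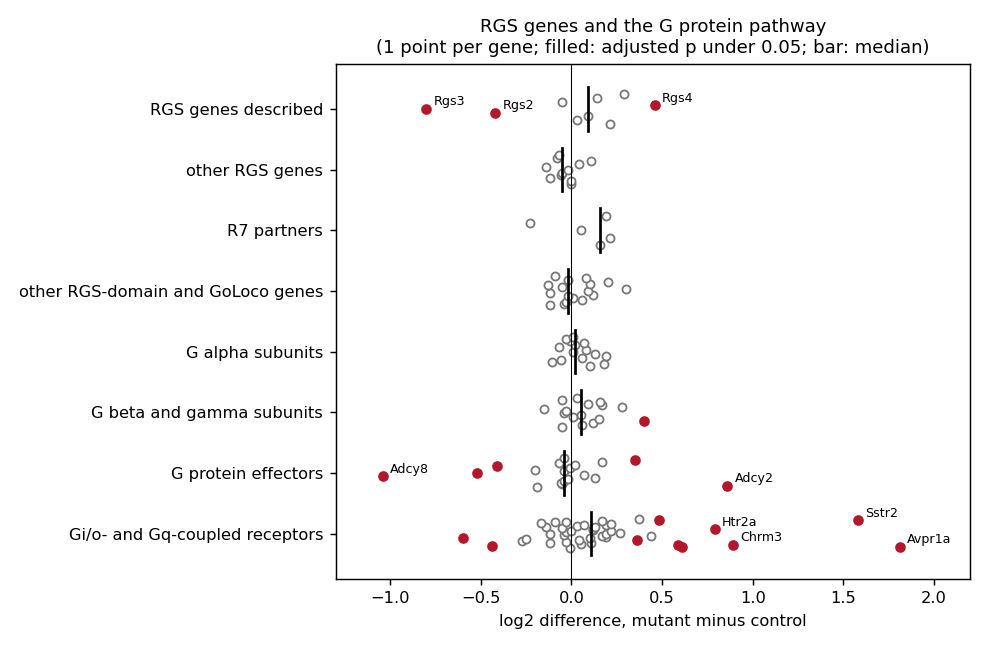
Log2 difference, mutant minus control, of each measured gene in 8 lists of RGS genes and G protein pathway genes, with filled points for adjusted p under 0.05 and a bar at each median. Filled points appear on both sides of 0 for the RGS genes described and the effectors, mostly right of 0 for the receptors, once for beta and gamma subunits, and nowhere for alpha subunits, other RGS genes, R7 partners or other RGS-domain genes.

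Marker lists of other cell types were read in the same arrays. Interneuron markers averaged 6.80 to 6.86 over 17 genes in mutant layers and 7.03 to 7.12 in control layers, with 15 of 17 differences below 0 and 3 called (Npy, Dlx1 and Nxph1). Of this list 2 passed without mutant 1, 2, 3 or 4 or control 2, 3 or 4. Without control 1, 4 passed, and without variance moderation 1 did. Vascular and pericyte markers averaged 5.97 to 6.08 over 14 genes in mutant layers and 6.12 to 6.19 in control layers, with 1 called (Abcc9). This call was lost in 6 of the 8 fits that left out 1 array, all except those without mutant 3 or control 2. Astrocyte and radial glia markers averaged 7.59 to 7.77 over 12 genes in mutant layers and 7.69 to 7.85 in control layers, with 2 called (Vim and Glul), ranges that overlap. Of these 12 differences 4 were above 0, and both calls were lost without mutant 2 or without control 2. Oligodendrocyte lineage markers averaged 5.67 to 5.73 over 10 genes in mutant layers and 5.60 to 5.73 in control layers. Of these Cnp rose (0.55, SE 0.10, adjusted p = 0.0062), with every mutant above every control, and 9 did not pass. No marker of the interneuron, vascular or astrocyte list lay at or below the floor. The upper-layer list averaged 8.53 to 8.72 in mutant layers and 8.77 to 8.92 in control layers, while the deep-layer list averaged 7.01 to 7.09 in mutant layers and 6.67 to 6.97 in control layers. Deep-layer calls went both ways, with rises of Ldb2 (1.38) and Pcp4 (0.95) and a fall of Ntsr1 (-0.90). Control 1 was the lowest control for Ldb2 (8.29, the other controls 9.58 to 9.74) and for Pcp4 (7.37, the other controls 8.18 to 8.55). Without control 1 the differences were smaller, 1.03 for Ldb2 and 0.70 for Pcp4, and both passed (limma adjusted p of 6.20e-05 and 0.00695). Both rises were lost with an intensity trend and robust variances (limma adjusted p of 0.116 and 0.146) and without variance moderation, and that of Pcp4 also without mutant 3 or mutant 4 (0.0663 and 0.0754). The part of these markers in the falls of Rgs3 and Rgs2 or the rise of Rgs4 was not tested. Microglial markers averaged 4.36 to 4.50 in mutant layers and 4.39 to 4.47 in control layers, with 7 of 13 at or below the floor, and striatal markers 5.51 to 5.61 in mutant layers and 5.51 to 5.60 in control layers.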

How the data were processed

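Total RNA of laser-microdissected neocortex from 8 pups was measured on Affymetrix GeneChip Mouse Gene 1.0 ST Arrays, per the labels. The submitters worked with BRB-ArrayTools, per the labels. How background and arrays were adjusted, and the log base, is not given in the sources used here. Deposited values were treated as log2 expression that the authors had normalized between arrays, given their range of 2.03 to 13.8 and array medians of 4.83 to 4.91. With another base, the tests would stay and the fold changes would differ.

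Of 35556 probe sets, 21789 had 1 symbol, 1621 several and 12146 none here. The brightest one-symbol probe set per gene gave 19938 genes, with no filter on dim ones. By Entrez identifier, 21698 probe sets matched the gene table of GRCm38.p6. Genotypes were contrasted in limma 3.58.1 (R 4.3.3) with no covariate (6.91 prior degrees of freedom). The 8 arrays limit the precision (median SE 0.0766). The moderated p-values rest on the spread between these pups, with each gene's variance drawn towards that of all genes. On simulated data for these 19938 genes, a shift of 0.5 log2 units was found in 46 of 67 genes and a shift of 1 in 66 of 67, with 3.78% false calls. The simulated noise was independent between genes and arrays, and fewer genes were shifted than passed in the data. These rates need not hold for the real arrays.

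The floor of 4.31 is the highest Y-linked reading (3 genes) among 3 female pups, 1 mutant and 2 controls, told by Xist, and 31.55% of genes had a mean at or below it. Members and lists were chosen with earlier results of these data known. Named genes are all RGS genes, Bcl11a, up to 4 called genes of each list and the 2 most alike genes of each called member. Pou3f3, Unc5d, Kitl, Prex1, Grm2, Chrm1, Gna13, Gnai1, Grk3, Grk5 and Grk6 and the R7 partners were named after their values were seen. Alternatives covered normalization, dim genes, probe sets, weights, variances, inferred sex, replicate number and each array in turn.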

Additional observations from a re-analysis of the deposited data

Results flagged for a closer look

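Of 44 groups of 4 arrays, those of 22 genes (all measured RGS genes, Bcl11a and Bcl6) in each genotype, 2 held an array far from the other 3, and chance flags about 1 group in 20. Rgs12 was 7.13 in mutant 2, while the other mutants read 6.82 to 6.85. Without mutant 2 the Rgs12 difference was 0.13. Rgs17 was 7.62 in mutant 1, while the other mutants read 7.43 to 7.45. Without mutant 1 the Rgs17 difference was 0.04. Neither gene passed with or without that array.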

How the results depend on the processing

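Rgs3 kept its direction and its call in every fit that left out 1 array (log2 difference -0.87 to -0.69), and Rgs2 did too (-0.49 to -0.37). For Rgs3 this holds for the brighter probe set. The dimmer one did not pass (-0.14, limma adjusted p = 0.554), and the mean of both gave -0.47 (limma adjusted p = 0.0128). The number of RGS genes called was 2 to 3 with 1 array left out, and that of all genes called was 584 to 814. Without variance moderation 249 of all genes (1.25%) and 0 of the 9 RGS genes passed limma's fit. There the lowest adjusted p of the 9 was that of Rgs3 at 0.0723. At an adjusted p under 0.01, 447 of all genes passed, and 1 RGS gene, Rgs3, did. Rgs4 also lost its call after quantile normalization (adjusted p = 0.0511), with each array centred on its median (0.0589), and with array weights (0.0638). The causes were not tested. Higher calls made up 56.8% of all calls as deposited and 45.7% after centring each array on its median. With the replicate number as a block, 987 of all genes and 3 RGS genes passed. Samples of the same number correlated at 0.056 to 0.30 in their deviations from the group means, above 0 for every number. Whether the numbers mark pairs was not tested, and the main fit did not use them. Across 51 named genes and all alternatives, 849 of 955 differences kept direction and side of the threshold, 84 lost the call, and 22 that passed in neither fit changed sign. The number of arrays limits what can be seen: in simulated data with independent noise 21 of 67 changes of 0.5 were missed.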
